A study of Mus musculus with 6 samples.

Results

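The imprinted Dlk1-Dio3 domain on mouse chromosome 12 holds the miRNAs described here. The members were every mouse assay of a TaqMan miRNA array whose miRNA number is that of a hairpin of the domain, with all strands included. The array table held 70 such assays among 596 mouse miRNA assays, and they carried 66 names because 4 miRNAs had an assay on each of the 2 cards of the array. They covered 47 of the 49 miRNA numbers of the rule, and no assay for miR-341 or miR-1197 was analysed here. All 70 matched 1 of 49 hairpin genes of RefSeq, and all of these lie on the plus strand. Within the cluster, 13 assays (miR-127, miR-136, miR-337, miR-431, miR-433, miR-434 and miR-540, all strands) formed the Rtl1 antisense group, and the other 57 assays were compared with it.

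MiRNAs were measured in whole aortas of 3 EC-Dicerflox and 3 EC-DicerWT mice. EC-Dicerflox mice carried the VE-Cadherin-CreERT2 transgene, homozygous floxed Dicer1 and no apolipoprotein E (Apoe-/-), and their EC-DicerWT littermates carried the same transgene and the same Apoe-/- background with 2 wild-type Dicer1 alleles. All mice were injected daily for 5 days with Tamoxifen (2 mg for each 20 g of weight), which activates the Cre recombinase in cells that use the VE-cadherin promoter, the endothelial cells (ECs). From an age of 6 to 8 weeks they were fed a high-fat diet (HFD: 21% fat, 0.15% cholesterol, 19.5% casein) for 4 weeks. The labels call the mice male and the study's text calls them female, and no result uses the sex. The comparison asked how the loss of Dicer in ECs changes the miRNAs of the aorta. ECs are 1 of several cell types in this tissue, so that a lower value can mean fewer cells of a type or less RNA per cell, which cannot be told apart.

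MiRNAs of this domain are processed from long non-coding transcripts (Meg3, antisense Rtl1, Rian and Mirg) that are expressed from the maternally inherited chromosome. Dicer cuts each hairpin precursor into a duplex, from which either arm (5p or 3p) can be loaded into the silencing complex. The Rtl1 antisense group lies opposite to the retrotransposon-derived gene Rtl1, which is expressed from the paternal chromosome, and these miRNAs match the Rtl1 transcript fully and direct its cleavage. The remaining hairpins stand mainly in a long array that runs from miR-379 to miR-410, which is known for its expression in brain, placenta and embryo. From this array, miR-329, miR-487b, miR-494 and miR-495 have been studied in vascular remodelling.

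The mature sequences were taken from RefSeq (GRCm38.p6), and the name of an assay gave the arm for 23 of the 70 members. For the other members the label names no arm, and both arms of the hairpin are shown where the results turn on such a member. The first set shows the hairpins of the Rtl1 antisense group to which the results below return, with the seed (bases 2 to 8), which pairs with target RNAs, in capitals.
miR-433-5p: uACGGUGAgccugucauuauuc
miR-433-3p: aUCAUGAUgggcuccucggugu
miR-127-5p: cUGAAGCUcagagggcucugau
miR-127-3p: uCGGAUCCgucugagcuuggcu
miR-434-5p: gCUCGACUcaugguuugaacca
miR-434-3p: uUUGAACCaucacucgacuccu
miR-337-5p: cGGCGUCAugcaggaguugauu
miR-337-3p: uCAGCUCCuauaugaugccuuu
They lie on the plus strand between the start of miR-337-5p (chr12:109585818-109585839) and the end of miR-434-3p (chr12:109594565-109594586), within the Rtl1 gene and on the opposite strand to it. No seed of this group recurred in another arm of the cluster.

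The second set shows the other members whose values did not overlap between the groups of mice, with miR-380-5p and miR-409-3p as the second arms of the same hairpins.
miR-380-5p: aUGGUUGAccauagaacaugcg
miR-380-3p: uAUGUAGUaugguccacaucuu
miR-409-5p: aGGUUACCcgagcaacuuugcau
miR-409-3p: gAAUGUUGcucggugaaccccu
miR-323-3p: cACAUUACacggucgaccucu
miR-543-5p: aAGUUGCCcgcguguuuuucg
miR-543-3p: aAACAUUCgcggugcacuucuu
miR-495-5p: gAAGUUGCccauguuauuuuucg
miR-495-3p: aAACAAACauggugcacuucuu
miR-379-5p: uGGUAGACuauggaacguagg
miR-379-3p: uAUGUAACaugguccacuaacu
miR-496a-5p: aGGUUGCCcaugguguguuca
miR-496a-3p: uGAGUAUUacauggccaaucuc
All belong to the array from miR-379 to miR-410, which spans chr12:109709065-109743784 from the first base of miR-379-5p to the last base of miR-410-3p. The arms of miR-380 lie at chr12:109711806-109711827 and chr12:109711842-109711863, and those of miR-409 at chr12:109743172-109743194 and chr12:109743204-109743225.

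Seeds recurred within the cluster in 6 groups with 12 arms, of the 93 mature arms that RefSeq lists for the 49 hairpins. The third set shows the partners of arms given above.
miR-453: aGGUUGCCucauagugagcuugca
miR-411-3p: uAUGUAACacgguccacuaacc
miR-1193-5p: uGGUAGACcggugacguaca
The seed of miR-453 is that of miR-496a-5p, the seed of miR-411-3p is that of miR-379-3p, and the seed of miR-1193-5p is that of miR-379-5p. The other groups were miR-494-5p with miR-410-5p, miR-376b-5p with miR-376c-5p, and miR-370-5p with miR-1193-3p. The sequences also shared short runs of letters. The run GGUUG, searched 5′ to 3′ in the mature RNA only, occurred in 12 of 93 arms of the cluster (12.9%) and in 2.52% of 1586 other mature mouse miRNAs. GGUCC, searched in the same way, occurred in 10 arms of the cluster (10.8%) and in 1.45% of the others. GGUUG stood mainly on 5p arms (9 of the 12) and GGUCC mainly on 3p arms (8 of the 10). These runs were chosen after the sequences were seen, and the counts describe shared letters only.

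The table gives the CT of each assay, the PCR cycle at which the signal crosses a threshold, so that a higher CT means less RNA, and a CT of 40 stands for no signal. A level is minus the delta CT against the mean of the control RNAs U6 and snoRNA135, and a log2 fold change is the mean level of EC-Dicerflox minus that of EC-DicerWT aortas, in cycles. Between 375 and 415 of the miRNA assays had a CT under 40 in a sample. EC-Dicerflox replicate 3 had the fewest, and its control RNAs were latest, at a mean CT of 20.2, followed by EC-DicerWT replicate 3 at 19.6, while the other 4 samples lay between 18.7 and 18.9. Among the miRNAs of cell types, early signals came from the smooth muscle miRNAs miR-143 (CT 16.9 to 18.1) and miR-145 (14.7 to 15), from miR-126-3p of ECs (17.1 to 19.1), and from miR-142-3p of leukocytes (21.8 to 24.2), and striated muscle miRNAs were present as well. Of the 6 assays for striated muscle, miR-133a (18.4 to 20.2), miR-133b (22.2 to 23.4) and miR-1 (22.9 to 24.8) were detected in all samples and miR-208 in 3 samples (32.9 to 34.5), whereas miR-208b and miR-499 stood at 40 in all samples. Erythroid miR-451 (20.4 to 23.6) and liver miR-122 (20.5 to 28) were also detected in all samples. So were miR-9 (24 to 25.7), miR-338-3p (29.4 to 31.5) and miR-219 (25 to 32.7) of neurons and glia, and miR-124 was detected in 3 samples. Dicer1 mRNA is not a target of these assays. For both miR-126 strands of ECs, the levels lay higher in every EC-Dicerflox aorta than in any EC-DicerWT aorta, as they did for 6.07% of all 461 miRNAs tested, with log2 fold changes of 0.41 ± 0.28 (SE) for miR-126-3p and 0.85 ± 0.38 for miR-126-5p. Without EC-Dicerflox replicate 2 these were 0.217 and 0.531.

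Most of the cluster was detected in the aorta. A CT under 40 was reached in all 6 samples by 47 of the 70 members (67.1%), beside 58.7% of all 596 assays, and in at least 1 sample by 60 members. In the Rtl1 antisense group 10 of 13 assays were detected in all samples (76.9%), and among the other members 37 of 57 (64.9%). The 10 members at 40 in every sample were miR-299, miR-370 (card B), miR-376c*, miR-433-5p, miR-493, miR-654-5p, miR-666-3p, miR-679, miR-758 and miR-770-5p. CTs of the members were later than those of the array as a whole, with a median of 29.0 for the 47 members and 27.2 for the 350 miRNAs detected in all samples.

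The earliest signals came from miR-127, with a mean CT of 23.28 ± 0.71 (SD, n = 3) in EC-Dicerflox and 23.28 ± 0.61 in EC-DicerWT aortas, and from miR-434-3p, with 23.4 ± 0.64 and 23.2 ± 0.70. Both belong to the Rtl1 antisense group. They were followed by miR-411 and miR-376b* (24.5 over all samples in each case), miR-379 (24.9), miR-382 (25.1) and miR-409-3p (25.5). MiR-127 and miR-434-3p differed by less than 1 SD of either group, as did miR-411 and miR-376b*, whereas the step from miR-434-3p to miR-411 was larger than the SD of both. Amplification differs between assays, so that the order is one of CT and not of molecules. The latest of the members detected everywhere were miR-381 (33.8) and miR-665 (34.3).

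**Figure D1:**
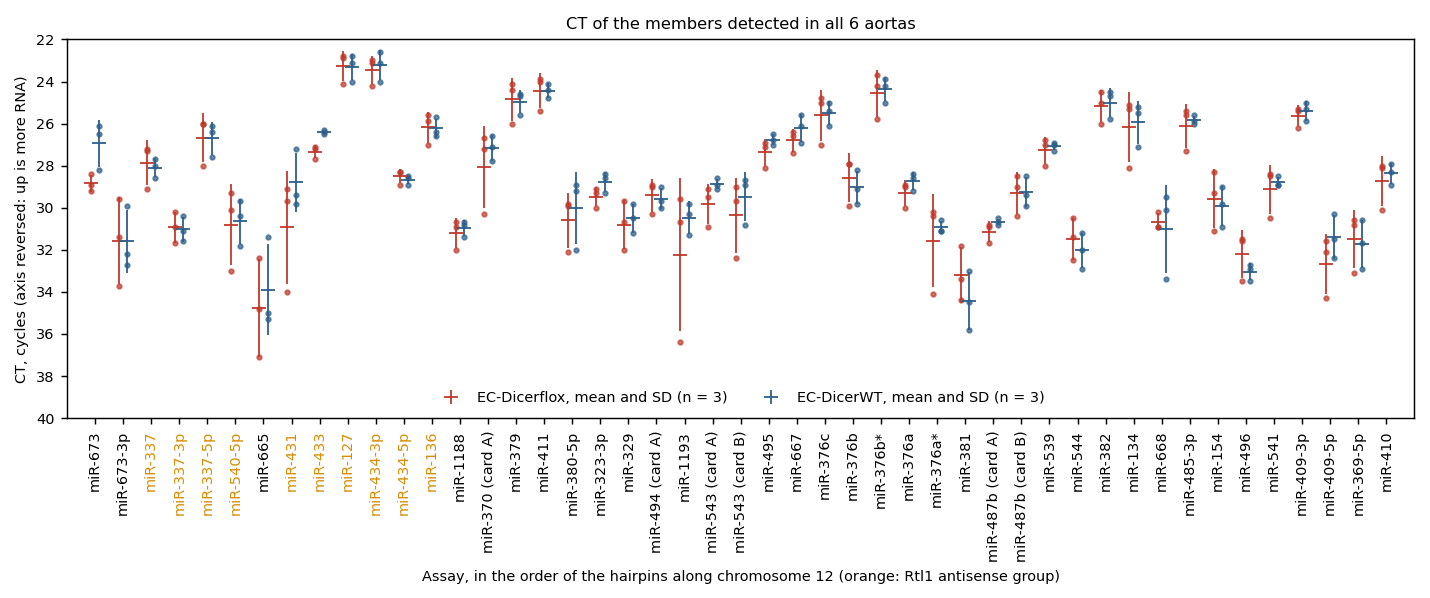
CT in cycles, on a reversed axis, of the 47 members detected in all 6 aortas, in the order of their hairpins along chromosome 12. Points are single aortas, and bars give the mean and the SD of 3 EC-Dicerflox (red) and 3 EC-DicerWT (blue) aortas. The names of the Rtl1 antisense group are orange, and miR-127 and miR-434-3p have the earliest CTs.

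The levels of several abundant members varied little between the mice. Over all 6 aortas, the SD of the level was 0.15 cycles for miR-411, 0.17 for miR-127, 0.19 for miR-382 and 0.20 for miR-376b*. Other early members varied more, as miR-434-3p (0.28), miR-433 (0.58) and miR-134 (0.65) did. The SD was largest for miR-665 (1.68), miR-431 (1.76) and miR-1193 (2.02), and in the latter 2 EC-Dicerflox replicate 3 stood apart. Other late members varied less, as miR-487b (card A, SD 0.34), miR-1188 (0.45) and miR-337-3p (0.48) did. The median SD within a group was 0.45 for the 47 members and 0.48 for all 350 miRNAs detected in every sample.

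Few members differed between the genotypes. Of the 60 members tested, 1 was lower at an unadjusted p-value under 0.05 (miR-380-3p) and 0 were higher. This was 1.67% of the members, beside 1.95% of all 461 miRNAs tested that were lower and 3.04% that were lower or higher at this threshold. After Benjamini-Hochberg adjustment over the 461 miRNAs, 0 members and 0 miRNAs (0%) passed in limma, and the smallest adjusted p of a member was 0.647. For 32 of the 47 members detected in all samples, the log2 fold change was smaller than 0.5 in size. A change of 1 cycle or more was seen in 6 of them, miR-381, miR-409-5p, miR-431, miR-496, miR-673 and miR-1193, none of which passed the unadjusted threshold. The matching shares of all 350 miRNAs detected in every sample were not computed, so that these counts by size describe the members only.

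By direction alone, 27 of the 47 members had a lower mean in EC-Dicerflox aortas (57.4%), beside 43.7% of all 350 miRNAs detected in all samples. Against U6 alone 44.7% of the members and 34.9% of the 350 miRNAs were lower, and against snoRNA202 alone 68.1% and 56% were, so that the control moved both shares together. The median log2 fold change of these 47 members was -0.06, and that of the 350 miRNAs was 0.10. The latter moved from -0.06 with snoRNA202 to 0.19 with U6, and the members' median moved with it. Relative to all 350 miRNAs the members' median was -0.167 with each of these controls. This sameness follows from arithmetic, because such a control shifts all miRNAs of a sample alike, and it is no check of the members. With the controls of the same card the value was -0.188.

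**Figure D2:**
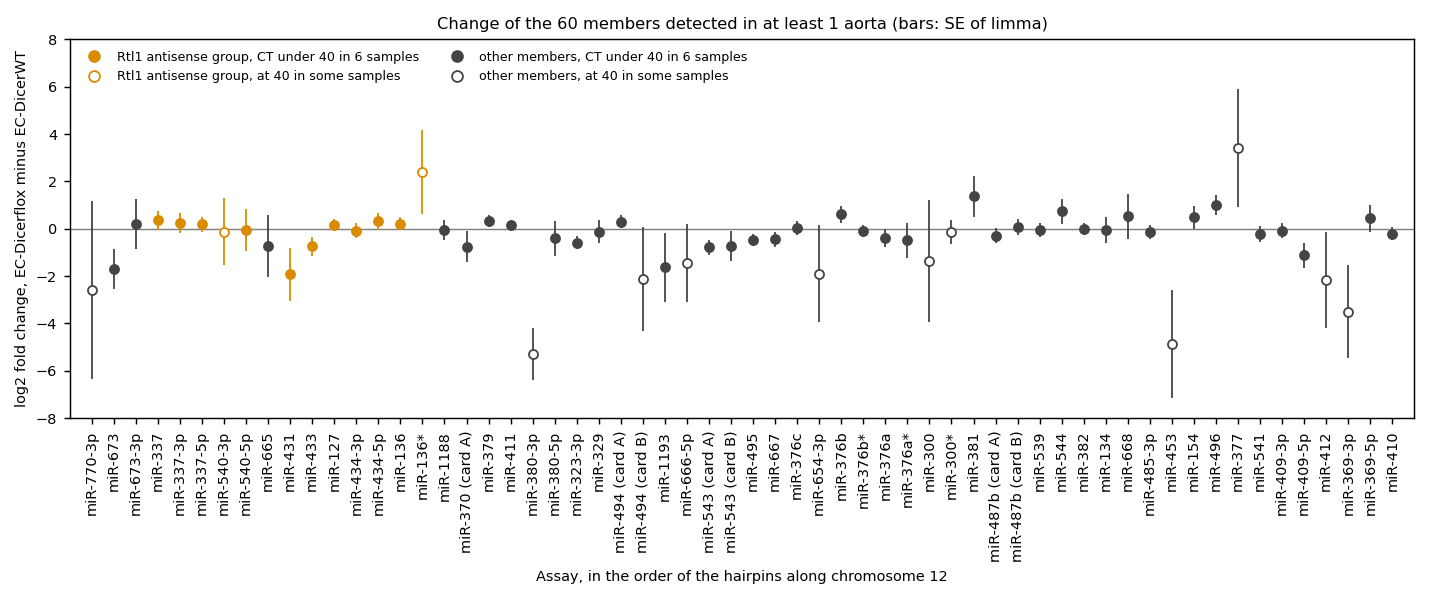
Log2 fold change (EC-Dicerflox minus EC-DicerWT) with the SE of limma for the 60 members detected in at least 1 aorta, in the order of their hairpins along chromosome 12. Orange marks the Rtl1 antisense group, and open points are members at CT 40 in some samples. Of the 47 filled points 32 lie within 0.5 of 0 and 6 lie 1 or more from it, and the values furthest from 0, such as miR-380-3p, miR-453 and miR-377, are open points.

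In the Rtl1 antisense group the directions were mixed. Of its 10 assays detected in all samples, 4 had a lower and 6 a higher mean in EC-Dicerflox aortas, with a median log2 fold change of 0.17. None of the 12 tested assays of the group passed the unadjusted threshold, and for none did the groups of mice stay apart, beside 3.04% of all 461 miRNAs that passed it and 4.34% (lower) and 6.07% (higher) whose groups did not overlap. Among the other 37 members 23 were lower and 14 higher, with a median of -0.09, so that the medians differed by 0.26. No test was made of this difference over members, and its own spread was not computed. A related value, the median level of the group minus that of the other members in each sample, had a pooled SD of 0.32 cycles within groups. With snoRNA202 the medians of the Rtl1 antisense group and of the other members were 0.00533 and -0.25, and with U6 they were 0.25 and -0.0055. Their signs thus held by small margins. The distance between the medians, 0.255, was the same with each single control RNA by arithmetic, so that the controls are no check of it.

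Within each aorta, the mean level of the 10 Rtl1 antisense assays exceeded that of the 37 other members by 1.49, 1.57 and 1.72 cycles in EC-Dicerflox replicates 1 to 3 and by 1.32, 1.69 and 1.76 in EC-DicerWT replicates 1 to 3. The values of the groups overlapped. Their means were 1.60 ± 0.12 (SD, n = 3) and 1.59 ± 0.24, a difference of 0.01. This was less than the spread between aortas (pooled SD 0.19). The difference turned to -0.184 when every hairpin overlapping Rtl1 was counted in the group and to -0.191 with 1 value per hairpin, about the size of that spread. The mean level of the Rtl1 antisense assays was -8.32 ± 0.19 in EC-Dicerflox and -8.19 ± 0.17 in EC-DicerWT aortas, and that of the other members was -9.92 ± 0.31 and -9.78 ± 0.07. EC-Dicerflox replicate 3 had the lowest mean in both sets of members, at -8.54 and -10.26.

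**Figure D3:**
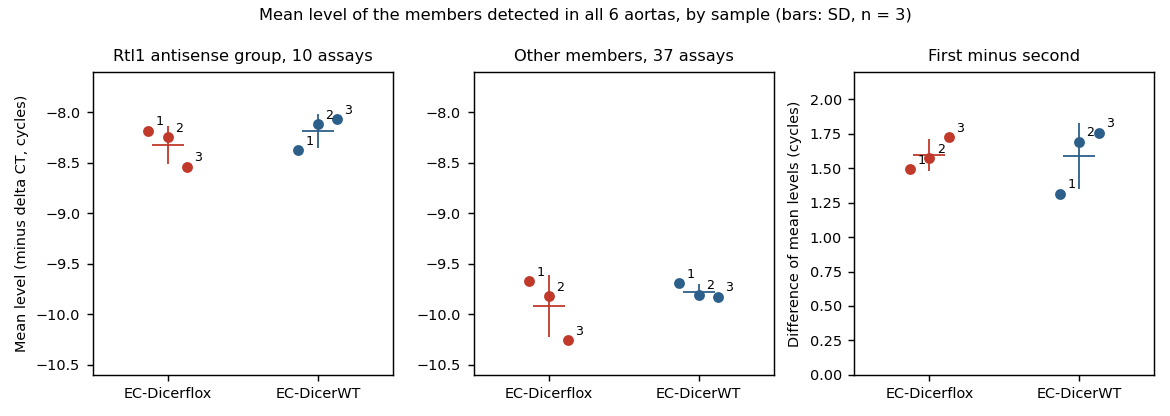
Mean level (minus delta CT, in cycles) of the 10 Rtl1 antisense assays, of the 37 other members, and the difference between these means, in each aorta. Points are aortas with their replicate number, and bars give the mean and SD of 3 aortas. The differences of the 2 genotypes overlap, between 1.32 and 1.76.

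MiR-127 reached levels of -4.02, -4.14 and -3.87 in EC-Dicerflox and -3.99, -4.14 and -4.36 in EC-DicerWT aortas. The groups overlapped, and the log2 fold change was 0.15 ± 0.24 (SE). Mature miR-434-3p behaved likewise, at -4.25, -4.30 and -3.94 against -4.28, -3.62 and -4.35, a change of -0.08 ± 0.31. The opposite arm miR-434-5p changed by 0.31 ± 0.34, miR-136 by 0.21 ± 0.27, miR-337 by 0.36 ± 0.41, miR-337-3p by 0.23 ± 0.43, miR-337-5p by 0.18 ± 0.33 and miR-540-5p by -0.04 ± 0.89. None of these changes was larger than its SE. Without EC-Dicerflox replicate 3 miR-434-5p changed by 0.0316. Without EC-DicerWT replicate 2 miR-136 changed by 0.0291 and miR-337 by 0.00179.

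MiR-433 had CTs of 27.2, 27.1 and 27.7 in EC-Dicerflox and of 26.5, 26.3 and 26.4 in EC-DicerWT aortas. These CTs did not overlap, whereas the levels did, at -8.29, -8.37 and -7.50 against -7.72, -7.37 and -6.83, because EC-Dicerflox replicate 3 also had late control RNAs. The log2 fold change was -0.75 ± 0.39 (unadjusted limma p = 0.113, adjusted p = 0.923, exact permutation p = 0.2). Without EC-Dicerflox replicate 3 it was -1.02, with an unadjusted p of 0.0493. The 5p arm of the same hairpin stood at 40 in every sample.

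MiR-431 had CTs of 29.7, 29.1 and 34.0 in EC-Dicerflox and 29.4, 27.2 and 29.8 in EC-DicerWT aortas. EC-Dicerflox replicate 3 stood apart from all others, and the log2 fold change was -1.93 ± 1.13, or -0.877 without that aorta and -1.23 without EC-DicerWT replicate 2. Of the 2 remaining assays of the group, miR-540-3p was at 40 in the third replicate of both groups and late elsewhere (34.8 to 38.6), and miR-136* gave a signal in EC-Dicerflox replicate 2 alone, at 33.2. The assay for miR-136, without the asterisk, was detected in all samples between 25.6 and 27.0.

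Outside the Rtl1 antisense group, the levels of 5 members lay lower in every EC-Dicerflox aorta than in any EC-DicerWT aorta (8.33% of the 60 members tested, beside 4.34% of all 461 miRNAs), and those of 2 lay higher (3.33%, beside 6.07%). With 3 mice per group, 0.1 is the smallest two-sided p of the exact permutation test, and each of these 7 members has it.

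MiR-380-3p was the 1 member past the unadjusted threshold. Its CTs were 36.8, 40 and 40 in EC-Dicerflox and 34.5, 33.4 and 32.6 in EC-DicerWT aortas. The signal was thus late in all EC-DicerWT aortas and absent in EC-Dicerflox replicates 2 and 3. With the wells without signal set to 40, the log2 fold change was -5.28 ± 1.10 (unadjusted limma p = 0.00421, adjusted p = 0.647, exact permutation p = 0.1), a size that depends on this limit. With all CTs above 35 set to 35 it was -1.35, with an unadjusted p of 0.13. The second arm of this hairpin, miR-380-5p, was detected in all samples, at 29.9, 29.8 and 32.1 against 29.2, 28.9 and 32.0, and changed by -0.40 ± 0.74. Without EC-DicerWT replicate 3 miR-380-5p changed by -1.14 and passed the unadjusted threshold, and without EC-DicerWT replicate 2 it changed by 0.1.

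MiR-409-5p reached levels of -13.25, -12.92 and -14.05 in EC-Dicerflox and -12.65, -11.38 and -12.83 in EC-DicerWT aortas. The nearest values of the groups, those of EC-Dicerflox replicate 2 and EC-DicerWT replicate 3, were close. The log2 fold change was -1.12 ± 0.54 (unadjusted limma p = 0.0876, exact permutation p = 0.1), and when the replicate number entered as a block it had an unadjusted p of 0.0323. Without EC-DicerWT replicate 2 the change was -0.667, and without EC-Dicerflox replicate 3 it was -0.799. The assay for the 3p arm of the hairpin had CTs of 25.0 to 26.2, and its level changed by -0.08 ± 0.30.

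MiR-543 was measured on both cards. On card A, its levels were -10.62, -10.35 and -10.70 in EC-Dicerflox and -9.81, -10.19 and -9.33 in EC-DicerWT aortas, a change of -0.78 ± 0.32 (unadjusted limma p = 0.0543, exact permutation p = 0.1). The assay of the same name on card B gave -10.86, -10.26 and -12.14 against -9.87, -9.96 and -11.22. The groups overlapped there, and the change was -0.74 ± 0.65. Without EC-Dicerflox replicate 3 the change was -0.21 on card B and -0.71 on card A. The p on card A fell under 0.05 in 7 of the alternative settings, among them snoRNA202 as the control and the test without EC-DicerWT replicate 2.

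MiR-323-3p reached -10.44, -10.38 and -9.81 against -9.74, -9.42 and -9.72, a change of -0.58 ± 0.29. MiR-495 reached -8.23, -8.23 and -7.92 against -7.66, -7.89 and -7.40, a change of -0.48 ± 0.26. In both, EC-Dicerflox replicate 3 lay nearest to the EC-DicerWT aortas. Their unadjusted limma p-values were 0.0979 and 0.124. That of miR-323-3p was 0.0476 with controls of the same card, and it also fell under 0.05 without EC-Dicerflox replicate 3.

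The members that lay higher were miR-379 and miR-496. MiR-379 reached levels of -5.47, -5.39 and -5.73 in EC-Dicerflox and -5.83, -5.78 and -5.98 in EC-DicerWT aortas, a change of 0.33 ± 0.24. MiR-496 reached -12.62, -12.87 and -13.30 against -13.93, -14.57 and -13.31, a change of 1.01 ± 0.42 (unadjusted limma p = 0.0581, exact permutation p = 0.1). Its unadjusted limma p fell under 0.05 in some alternative settings, among them CTs under 40 (0.045) or under 35 (0.038) in all samples. EC-Dicerflox replicate 3 and EC-DicerWT replicate 3 differed by 0.01 cycles in this miRNA, so that the separation rests on the other 4 aortas.

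**Figure D4:**
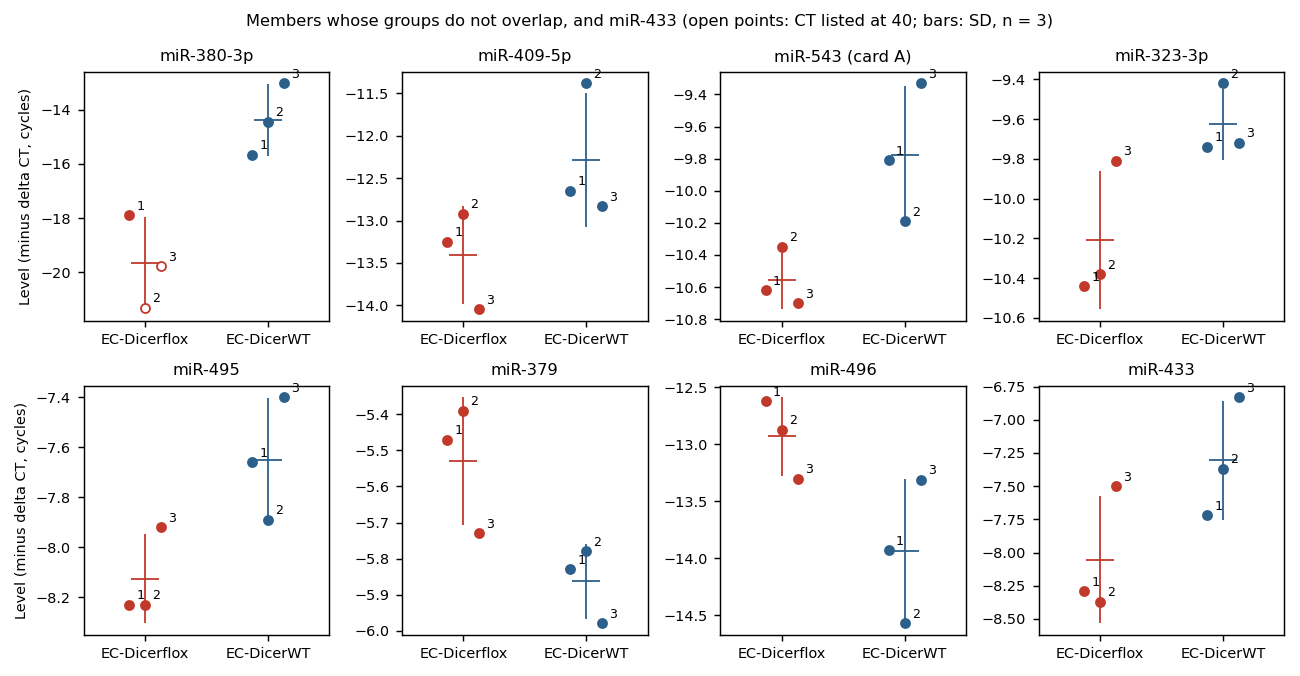
Level (minus delta CT, in cycles) in each aorta of the 7 members whose groups do not overlap, and of miR-433 for comparison. Points carry the replicate number, open points are wells without signal (CT 40), and bars give the mean and SD of 3 aortas. Each panel has its own scale, from under 1 cycle for miR-379 to over 8 cycles for miR-380-3p.

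The remaining abundant members differed little between the genotypes. The log2 fold change was 0.15 ± 0.24 (SE) for miR-411, -0.09 ± 0.26 for miR-376b* and 0.00 ± 0.26 for miR-382. Among members whose hairpins share a seed, miR-376c changed by 0.03 ± 0.31, miR-376b by 0.60 ± 0.37, miR-410 by -0.21 ± 0.28 and miR-1193 by -1.63 ± 1.45. MiR-1193 was at 36.4 in EC-Dicerflox replicate 3 and between 29.6 and 31.3 in the other 5 aortas, so that its mean rests on that aorta, without which it changed by -0.0114.

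Of the members studied in vascular remodelling, miR-495 is given above. MiR-329 had CTs of 30.7, 29.7 and 32.0 in EC-Dicerflox and 29.8, 31.2 and 30.5 in EC-DicerWT aortas and changed by -0.13 ± 0.49. MiR-487b changed by -0.30 ± 0.32 on card A and by 0.08 ± 0.34 on card B. MiR-494 changed by 0.30 ± 0.28 on card A, where it was detected in all samples, and by -2.13 ± 2.19 on card B, where EC-Dicerflox replicate 3 had no signal. With that well left missing, miR-494 on card B changed by 0.148, in the direction of card A. MiR-370 was detected in all samples on card A (26.6 to 30.3) and in none on card B.

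Detection itself differed between the aortas. Of the 70 members, 57, 54 and 48 had a CT under 40 in EC-Dicerflox replicates 1 to 3 and 58, 55 and 54 in EC-DicerWT replicates 1 to 3. For all 596 assays these counts were 405, 415 and 375 in EC-Dicerflox and 407, 402 and 404 in EC-DicerWT aortas. The 13 members detected in some samples only were miR-136*, miR-300, miR-300*, miR-369-3p, miR-377, miR-380-3p, miR-412, miR-453, miR-494 (card B), miR-540-3p, miR-654-3p, miR-666-5p and miR-770-3p. EC-Dicerflox replicate 3 lacked a signal for 12 of these 13. In all, 21 of 39 wells of these members stood at 40 in EC-Dicerflox (53.8%) and 13 of 39 in EC-DicerWT aortas (33.3%), and without replicate 3 of both groups these were 9 of 26 (34.6%) and 7 of 26 (26.9%). The matching shares over all partly detected miRNAs were not computed. Wells of the same aorta are not replicates, so that these shares only describe the members. EC-Dicerflox replicate 3 also had the latest control RNAs, and the part of this in the missing signals was not tested.

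MiR-453 was detected at 31.8 in EC-Dicerflox replicate 1, had no signal in replicates 2 and 3, and lay at 31.5, 32.7 and 32.5 in the EC-DicerWT aortas. MiR-369-3p followed a similar course, at 31.3, 35.7 and 40 against 31.1, 33.1 and 31.8. In both, EC-Dicerflox replicate 1 was like the EC-DicerWT aortas. The log2 fold changes were -4.87 ± 2.27 and -3.51 ± 1.96 with missing signals at 40, and the unadjusted limma p-values were 0.0814 and 0.130. With CTs above 35 set to 35 these changes were -1.54 and -1.62, and with wells without signal left missing miR-369-3p changed by -1.8, so that their size depends on the limit of 40. Without EC-Dicerflox replicate 1, miR-453 changed by -7.42 (limma, adjusted p = 0.0476), but both remaining EC-Dicerflox wells then stood at 40, so that this value is set by the limit. The 5p arm miR-369-5p was detected in all samples and changed by 0.44 ± 0.56. MiR-496, whose hairpin holds an arm with the seed of miR-453, is given above with the members that lay higher.

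MiR-377 went the other way, at 32.5, 31.6 and 40 in EC-Dicerflox and 34.0, 40 and 40 in EC-DicerWT aortas. Its log2 fold change was 3.42 ± 2.5 with wells without signal at 40, 1.75 with CTs above 35 set to 35 (unadjusted p of 0.0185) and 5.59 without EC-Dicerflox replicate 3 (unadjusted p of 0.0475), and EC-Dicerflox replicate 3 shared the lack of signal with EC-DicerWT replicates 2 and 3. MiR-770-3p, from a hairpin that overlaps Meg3, was at 27.3 in EC-DicerWT replicate 1, at 35.5 in EC-Dicerflox replicate 1 and at 40 in the other 4 samples. MiR-654-3p and miR-300* gave a signal in 1 sample each, EC-DicerWT replicate 3 (33.8) and EC-DicerWT replicate 1 (39.1). MiR-300 ranged from 31.6 to 40, miR-412 from 33.2 to 40, and miR-666-5p from 33.0 to 40 without an order by genotype.

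The assays of one hairpin were also compared within each sample, where a control RNA cancels out if both assays are on the same card. Of 16 such pairs, 6 were detected with both assays in all samples, and each of these was tested by permuting the 6 samples exactly (two-sided, smallest p 0.1). MiR-409-5p crossed the threshold later than miR-409-3p by 6.69, 6.32 and 8.09 cycles in EC-Dicerflox and by 6.12, 5.33 and 6.52 cycles in EC-DicerWT aortas, and the groups overlapped (exact p = 0.2, adjusted over the 6 pairs 0.6). MiR-434-5p was later than miR-434-3p by 5.10 ± 0.30 (SD, n = 3) and 5.49 ± 0.54 cycles in the 2 groups. MiR-337-5p was earlier than miR-337-3p by a difference of -4.27 ± 0.63 and -4.32 ± 0.83 cycles. The arm with the earlier signal was thus the same in all 6 aortas in each of these 3 hairpins.

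MiR-376b* was earlier than miR-376b, by differences of -3.69, -4.17 and -4.12 cycles in EC-Dicerflox and -4.27, -4.99 and -4.79 cycles in EC-DicerWT aortas. By these CTs it was the 1 pair whose groups did not overlap, with a difference of 0.69 cycles between the means (exact p = 0.1, adjusted 0.6). Its assays are on different cards, however, and against the controls of their own cards the difference was 0.58 and the groups overlapped (an alternative chosen after seeing the data). The pair of miR-376a* and miR-376a, also on different cards, differed by 2.29 ± 1.59 and 2.2 ± 0.22 cycles, and that of miR-673-3p and miR-673 by 2.79 ± 1.69 and 4.67 ± 1.40. MiR-673 itself had CTs of 28.4, 28.9 and 29.2 in EC-Dicerflox and 28.2, 26.5 and 26.1 in EC-DicerWT aortas, a change of -1.69 ± 0.84. Its CT in EC-DicerWT replicate 1 was like those of the EC-Dicerflox aortas, and the levels of the groups overlapped. The change was -2.49 without that aorta, with an unadjusted p of 0.0111, and -1.01 without EC-DicerWT replicate 3.

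**Figure D5:**
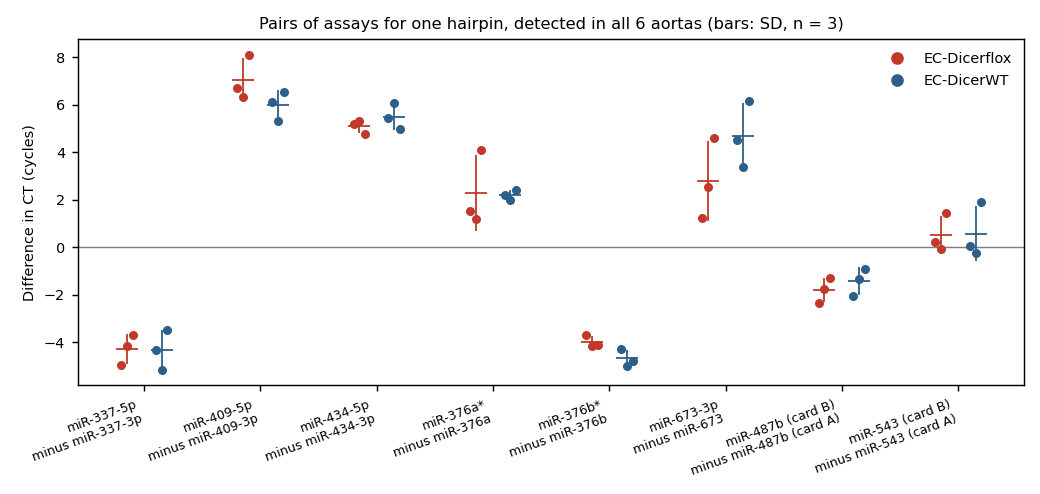
Difference in CT, in cycles, between 2 assays of the same hairpin in the same aorta, for the 6 pairs of strands and the 2 miRNAs measured on both cards that were detected in all samples. Points are EC-Dicerflox (red) and EC-DicerWT (blue) aortas, and bars give the mean and SD of 3 aortas. Differences above 0 mean that the assay named first is later. The groups overlap in every pair but miR-376b* and miR-376b, whose assays, as those of miR-376a* and miR-376a, are on different cards.

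By position, the directions were mixed. Of the members from miR-379 to miR-410, 32 were detected in all samples, 19 with a lower and 13 with a higher mean in EC-Dicerflox aortas, and their median log2 fold change was -0.09. The 2 detected members in Rian, miR-370 (card A) and miR-1188, changed by -0.75 ± 0.64 and -0.06 ± 0.41. Without EC-Dicerflox replicate 3 miR-370 changed by -0.119. MiR-1188 changed by 0.313 without EC-DicerWT replicate 3 and by -0.365 without EC-DicerWT replicate 2. Some hairpins close to each other differed in direction by their means, as miR-380-3p (lower) and miR-379 (higher) or miR-453 (lower) and miR-496 (higher) did. These pairs are examples only, and both lower members had no signal in EC-Dicerflox replicates 2 and 3. Within the 3 pairs of mice with the same replicate number, 11 of the 47 members detected in all samples were lower in each pair (23.4%, beside 14.9% of the 350 miRNAs) and 9 were higher in each pair (19.1%, beside 23.7%). The former included miR-433, miR-495 and both assays of miR-543, and the latter miR-379, miR-381, miR-411 and miR-496. MiR-381 changed by 1.38 ± 0.87, and its unadjusted p was 0.0366 when the replicate number entered as a block. Without EC-DicerWT replicate 2 the change was 0.594, and without EC-Dicerflox replicate 1 it was 0.866.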

How the data were processed

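The authors deposited CT values of TaqMan miRNA array cards as 1 table, with 40 for wells without signal and no normalization. Per the study's methods, RNA was reverse-transcribed, pre-amplified and measured by real-time PCR, and how baselines and thresholds were set is not given in the sources used here. The 6 columns were matched to the samples by name. The control value of a sample was the mean CT of its U6 and snoRNA135 wells (4 in all). All 461 miRNAs that 1 or more samples detected (CT under 40) were tested with limma 3.58.1 (lmFit, eBayes, prior of 1.31 degrees of freedom) in R 4.3.3, with Benjamini-Hochberg adjustment over all of them. The test was checked on simulated independent normal values without a limit at 40. That check does not cover miRNAs with wells at 40. Single differences were compared in Python 3.11.15 by exact permutation (20 arrangements). Cards A and B are names given here, after the table was seen, to the 2 styles of assay number. Precision is limited by the 3 arrays per group.

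The members and lists were chosen with earlier results of these data known. The members named are the Rtl1 antisense group, other members with an unadjusted p under 0.05 or with groups that do not overlap, the 5 other members with the earliest CT, members at 40 in some or all samples, hairpins with both strands detected, miR-329, miR-487b, miR-494 and miR-495, and members that share a seed. MiR-381 and miR-431, and members with a change of 1 cycle or more, were named after their values were seen where no part of this rule names them.

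Deviations of same-numbered samples from the group means correlated at 0.150, 0.224 and 0.431 over 350 miRNAs (numbers 1, 2 and 3), each above the limit of 0.1 set for pairing, but neither labels nor methods say what a number marks. Different numbers reached 0.285 (EC-Dicerflox replicate 1 with EC-DicerWT replicate 2). Alternatives were other control RNAs, limits, filters and moderation, the replicate block, leaving out each sample, and, chosen after seeing the data, leaving out replicate 3 of both groups.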

Additional observations from a re-analysis of the deposited data

How the results depend on the processing

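Values of 39 members were recomputed in the alternatives. These include miR-381 and leave out some members that the rule names, such as miR-376c, miR-410 and miR-1193. Of the 761 recomputed values, 688 kept their direction and their side of the threshold, 27 kept their direction and passed the unadjusted threshold, 1 (miR-380-3p with CTs above 35 set to 35) no longer passed it, and 45 changed sign. The number of members that were higher rose from 0 to 1 with undetermined wells left missing, with CTs above 35 set to 35, with CTs under 40 or under 35 in all samples, with the median of all miRNAs, with the ordinary linear model and with the replicate block. This member was miR-377 with CTs above 35 set to 35, miR-379 with the ordinary linear model, miR-381 with the replicate block and miR-496 in the other settings. The number that were lower fell from 1 to 0 with CTs above 35 set to 35, rose to 2 with snoRNA135 alone, the median of all miRNAs, controls of the same card, the ordinary linear model and the replicate block, and rose to 3 with snoRNA202 alone. MiR-380-3p could not be tested with undetermined wells left missing or with CTs under 40 or under 35 in all samples, and the 1 lower member there was miR-543 (card A). In the replicate block the members that passed were miR-380-3p, miR-409-5p and miR-381, against miR-380-3p without pairing. The counts over all miRNAs tested moved too, from 9 lower and 5 higher to 14 and 4 with snoRNA202 alone, 10 and 14 with the ordinary linear model and 11 and 4 in the replicate block, and over all settings that kept every sample they ranged from 6 to 14 lower and from 3 to 14 higher. Leaving out samples gave 1 to 3 lower, 0 to 1 higher and 0 to 1 members past the adjusted threshold, beside 7 to 12 lower, 4 to 10 higher and 0 to 2 past the adjusted threshold among all 461 miRNAs. The difference of the per-sample scores between the genotypes, 0.01 cycles, was -0.18 (-0.184) when the Rtl1 antisense group was taken as all hairpins overlapping Rtl1, which adds miR-493, miR-665 and miR-673, and -0.191 with 1 value per hairpin. It ranged from -0.130 to 0.092 when samples were left out. The difference of the median log2 fold changes ranged from 0.113 (without EC-Dicerflox replicate 3) to 0.375 (without EC-DicerWT replicate 1).

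Changes of sign concerned 16 of the 39 members recomputed. Others outside these 39 changed sign when samples were left out, as miR-376c (-0.158 without EC-Dicerflox replicate 1) and miR-1188 (0.313 without EC-DicerWT replicate 3) did. With snoRNA202 alone the log2 fold change was -0.01 (-0.0113) for miR-127, -0.008 for miR-411, -0.16 for miR-382 and -0.0837 for miR-487b (card B). With snoRNA135 alone it was -0.0825 for miR-382 and -0.00583 for miR-487b (card B), with controls of the same card -0.0545 for miR-382, and with U6 alone 0.0045 for miR-434-3p, 0.0442 for miR-540-5p and 0.00183 for miR-409-3p. With undetermined wells left missing it was 0.148 for miR-494 (card B), and with CTs above 35 set to 35 it was 0.213 for miR-540-3p. When samples were left out, the ranges were -0.018 to 0.237 for miR-127, -0.569 to 0.217 for miR-329, -0.145 to 0.445 for miR-337-3p, -0.0181 to 0.361 for miR-337-5p, -0.90 to 0.495 for miR-376a*, -0.23 to 0.0463 for miR-376b*, -1.14 to 0.10 for miR-380-5p, -0.189 to 0.101 for miR-382, -0.294 to 0.0413 for miR-409-3p, -0.322 to 0.152 for miR-434-3p, -0.118 to 0.302 for miR-487b (card B), -3.46 to 0.732 for miR-494 (card B), -1.34 to 0.664 for miR-540-3p, -0.775 to 0.935 for miR-540-5p and -0.613 to 0.959 for miR-673-3p. The cause was not tested. Late CTs limit precision, and 13 members without signal in some samples have values set by the limit of 40.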

Other observations

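Among miRNAs of other imprinted loci, miR-335-5p from the Mest locus had CTs of 28.5, 27.4 and 29.9 in EC-Dicerflox and 28.9, 29.5 and 30.0 in EC-DicerWT aortas. Its log2 fold change was 1.03 ± 0.36 (past the unadjusted threshold, limma, adjusted p = 0.923), and the opposite strand miR-335-3p changed by 0.76 ± 0.50, or 0.417 without EC-Dicerflox replicate 2. MiR-675-3p from H19 stood at 40 in EC-Dicerflox replicates 1 and 3 and at 35.7 in replicate 2, and lay at 35.4, 32.0 and 37.9 in EC-DicerWT aortas. MiR-296-5p from the Gnas locus changed by -0.54 ± 0.42, or -0.199 without EC-Dicerflox replicate 3. Of the 9 assays of these loci, 5 were detected in at least 1 sample.

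Of the 10 assays of the X-linked polycistron of miR-322, miR-503, miR-351, miR-542 and miR-450, 9 were detected in at least 1 sample. Of these, 6 had a lower and 3 a higher mean in EC-Dicerflox aortas, beside 45.6% of all 461 miRNAs tested that were lower. In this polycistron 0 passed the unadjusted threshold, beside 3.04% of the 461 miRNAs. Among leukocyte miRNAs, miR-142-5p passed the unadjusted threshold, with CTs of 29.5, 28.8 and 30.6 against 28.0, 28.3 and 29.1 (log2 fold change -0.996 ± 0.25, limma, adjusted p = 0.923), whereas miR-142-3p from the same hairpin changed by -0.38 ± 0.36, miR-150 by -0.43 ± 0.64 and miR-223 by 0.17 ± 0.45. With single samples left out, the ranges were -1.13 to -0.893 for miR-142-5p and -0.631 to -0.11 for miR-142-3p. They were -0.959 to 0.108 for miR-150 and -0.163 to 0.474 for miR-223.

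A few wells held a CT far from those of the same assay in the other samples. MiR-450b-5p was at 19.9 in EC-Dicerflox replicate 3 and 25.4 in EC-DicerWT replicate 3, beside 33.0 to 40 in the other 4 samples. MiR-124 was at 25.9 in EC-DicerWT replicate 3 and between 31.4 and 40 elsewhere, and miR-219 was at 25.0 in EC-Dicerflox replicate 3 and between 29.4 and 32.7 elsewhere. The CT of 27.3 for miR-770-3p in EC-DicerWT replicate 1 was of the same kind.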
